A study of Mus musculus with 16 samples.

Results

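The genes described here encode the subunits of the mitochondrial respiratory chain and of ATP synthase, with a few of their assembly factors. All genes that a probe set of the array names alone and whose symbol begins with Nduf followed by a, b, c, s or v, with Uqcr, with Atp5 or with Cox4 to Cox8, together with Sdha, Sdhb, Sdhc and Sdhd, were taken, and each was read from its brightest probe set. The rule gave 84 genes of the 12393 measured, namely 33 of complex I, 4 of complex II, 8 of complex III, 16 of complex IV, 17 of ATP synthase and 6 associated factors. Of these, 45 had several probe sets, 156 in all, and 19 were read from a set that may also bind related transcripts. A further 8 probe sets of subunit genes carried several symbols and were not used.

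Left lungs of 16 mice on the C57BL/6 background with a mean age of 14 weeks were measured, 1 microarray per mouse. The 4 groups were adiponectin-deficient mice, which lack a hormone of fat tissue through their genotype, that breathed 0.3 ppm ozone for 72 h, deficient mice in room air, wildtype mice in the same ozone, and wildtype mice in room air. Each group held 2 males and 2 females, called M1, M2, F1 and F2, in which order the values per array are given. The allele behind the deficiency, and whether wildtype and deficient mice were littermates, were not stated in the labels.

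The respiratory chain sits in the inner mitochondrial membrane. Complex I takes electrons from NADH and complex II takes them from succinate, a reaction it shares with the citric acid cycle. Both pass them through ubiquinone to complex III, then through cytochrome c to complex IV, which reduces oxygen, while the protons pumped on the way drive ATP synthase. Nearly all the subunits are nuclear genes, and several subunits of complex IV exist in forms typical of heart, skeletal muscle, lung or testis.

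Levels are log2 of the intensity, differences are log2 ozone minus air (or deficient minus wildtype) ± SE of one limma fit over all arrays with sex as a term, and calls used a threshold of 0.05 on p-values adjusted by Benjamini-Hochberg over all 12393 genes. Calls and adjusted p-values of further probe sets of a gene come from a separate limma fit, adjusted over 20380 probe sets. Medians of the arrays lay between 145.871 and 153.748 on the intensity scale, and with 4 arrays per group their number limits the precision. Adipoq, the adiponectin gene, averaged 6.68 ± 0.90 in deficient and 8.48 ± 1.35 in wildtype mice (SD, 8 mice of each genotype). The difference of -1.80 had an exact permutation p of 0.00420, two-sided, and deficient air F2 at 8.82 lay inside the wildtype range. The free description of wildtype ozone F1 names room air while its other labels name ozone, and it was kept with ozone. All 9 lung epithelial and endothelial markers were measured, and their summed level was high on every array, between 16.45 and 16.66. Deficient air F2 and wildtype air F1 carried the brown fat gene Ucp1 at 7.27 and 7.25, against 4.62 to 5.18 elsewhere, and deficient air M2 carried the skeletal muscle gene Acta1 at 13.08 and the squamous keratin gene Krt4 at 13.03. These 3 air arrays are called mixed below, and results that rest on them are given with and without them.

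After ozone, a part of the respiratory chain genes rose in both genotypes and few fell. In deficient mice 28 of the 84 genes (33.3%) rose and 6 (7.14%) fell, where over all genes 15.8% rose and 14.6% fell, 30.3% in all. In wildtype mice 36 (42.9%) rose and 4 (4.76%) fell, where over all genes 19.6% rose and 17.1% fell, 36.7% in all. The median difference of the 84 genes was 0.088 in deficient and 0.157 in wildtype mice, and that of all genes 0.012 and 0.032. By direction, 25 genes rose in both genotypes, 2 fell in both, 3 rose and 4 fell in deficient mice alone by these calls, 11 rose and 2 fell in wildtype mice alone, and 37 passed in neither. The counts by complex below are to be read beside the shares over all genes given here.

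The groups did not overlap, ozone above air, for 28 genes in deficient mice, against 15.4% of all genes, and for 31 genes in wildtype mice, against 17.1% of all genes. They did not overlap, ozone below air, for 5 genes in deficient and 4 genes in wildtype mice, where all genes gave 13.3% and 14.2%. Leaving out deficient ozone F2 lowered the count in deficient mice to 19 rises and 2 falls. Without the 3 mixed arrays there were 28 rises and 2 falls in deficient mice and 35 rises and 4 falls in wildtype mice.

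**Figure D1:**
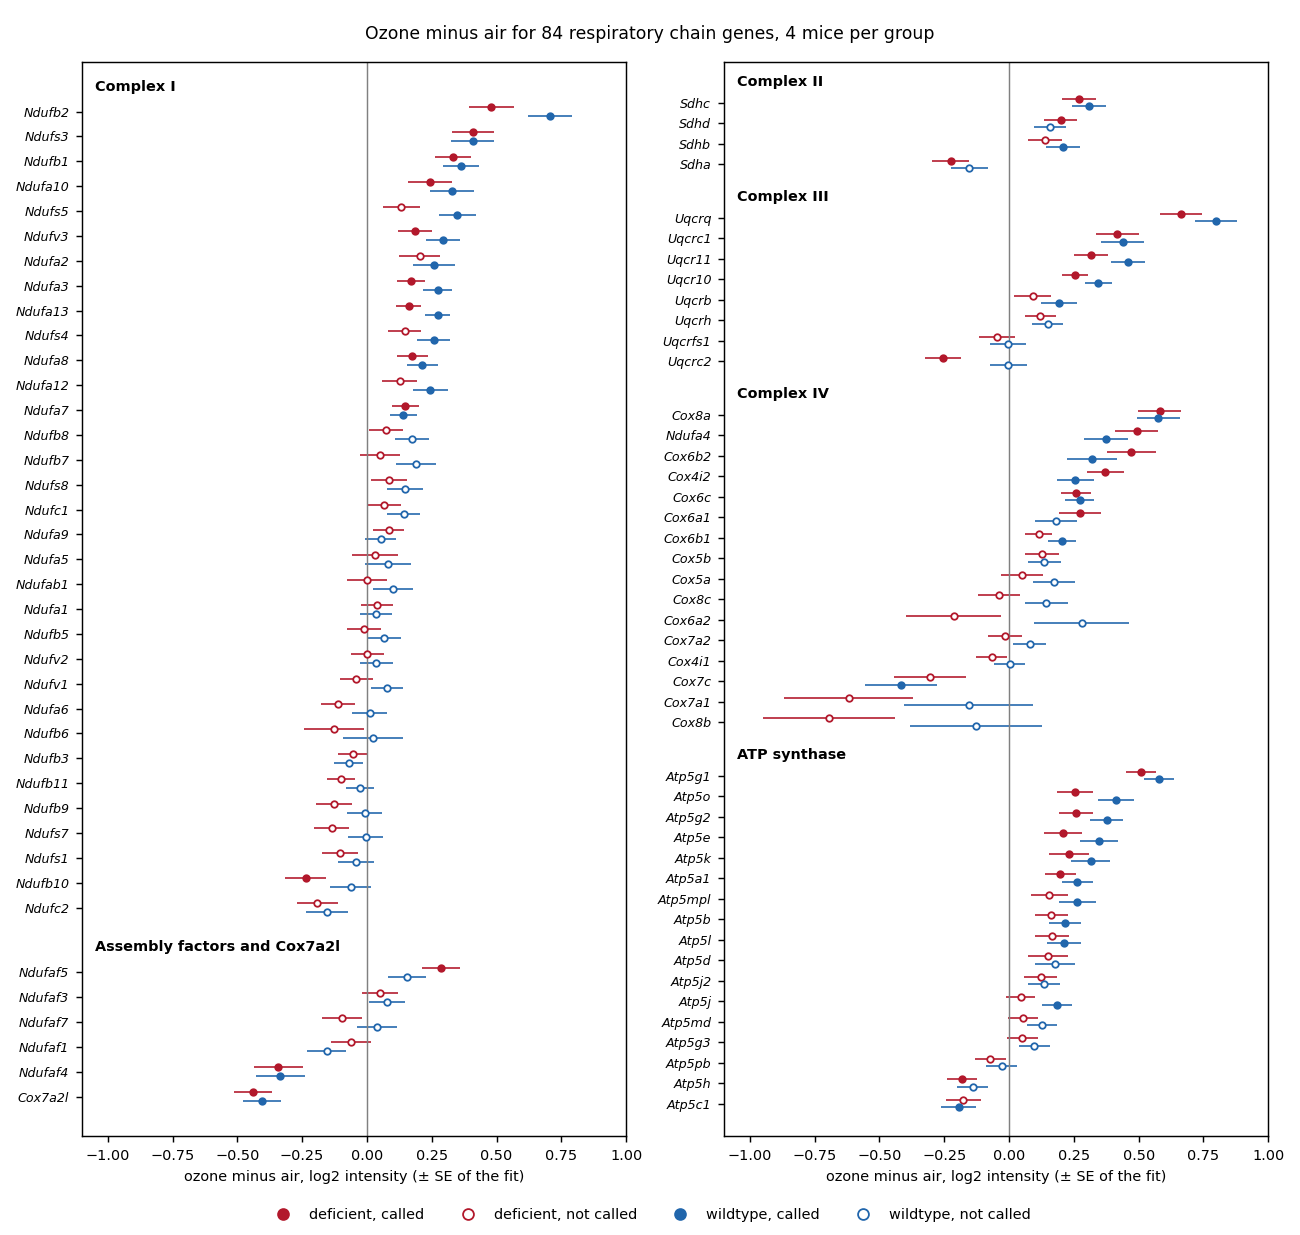
Difference between ozone and air in log2 intensity for each of the 84 genes, with bars for the SE of the fit, in deficient mice (red) and wildtype mice (blue), 4 mice per group. Filled points passed an adjusted p under 0.05, and most filled points lie right of 0, with 28 rises in deficient and 36 in wildtype mice.

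The same lungs carried more transcripts of dividing cells. All 9 proliferation markers rose in both genotypes, with median differences of 2.71 in deficient and 2.45 in wildtype mice. Their summed level lay between 11.76 and 12.20 in deficient ozone and between 9.31 and 9.38 in deficient air, and between 11.47 and 11.74 in wildtype ozone and between 9.13 and 9.39 in wildtype air. The 9 lung epithelial and endothelial markers also stood higher in their sum, at 16.56 to 16.58 in deficient ozone against 16.45 to 16.51 in deficient air, and at 16.62 to 16.66 in wildtype ozone against 16.50 to 16.60 in wildtype air, without overlap. Of them 3 rose in deficient and 1 in wildtype mice, 0 fell, and their median differences were 0.255 and 0.127, against 0.088 and 0.157 for the respiratory chain genes. The 9 fat cell markers had median differences of -0.91 in deficient and -0.50 in wildtype mice, and their differences did not pass. Their sum was 10.34 to 10.58 in deficient ozone and 10.67 to 13.24 in deficient air, and 10.68 to 11.25 in wildtype ozone and 10.40 to 13.37 in wildtype air. Of 8 squamous markers 1 rose in each genotype. Their sum was 9.74 to 10.24 in deficient ozone and 8.66 to 13.76 in deficient air, with the highest value on deficient air M2, and 9.94 to 10.27 in wildtype ozone and 8.68 to 8.96 in wildtype air. Of 7 alveolar macrophage markers 0 rose and 1 fell in deficient mice, and 1 rose and 2 fell in wildtype mice. The part of these changes in the result on the respiratory chain was not tested. In homogenised lung, fewer cells of a type and less RNA per cell cannot be told apart.

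Complex III held the member with the largest rise in both genotypes. Of its 8 genes, 4 rose and 1 fell in deficient mice and 5 rose and 0 fell in wildtype mice, with median differences of 0.188 and 0.269. Uqcrq, a small subunit that helps bind ubiquinone, measured 10.49, 10.59, 10.54 and 10.73 in deficient ozone against 9.74, 10.10, 9.83 and 10.03 in deficient air. It measured 10.73, 10.69, 10.58 and 10.68 in wildtype ozone against 9.81, 9.90, 9.96 and 9.82 in wildtype air. Every ozone array stood above every air array in each genotype. The difference was 0.66 ± 0.081 in deficient mice (adjusted p = 3.17e-05), 1.58-fold, and 0.80 ± 0.081 in wildtype mice (adjusted p = 7.06e-06), 1.74-fold. The 3 dimmer probe sets of Uqcrq gave smaller differences, the brightest of them 0.23 in deficient mice, which did not pass, and 0.29 in wildtype mice, which did.

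Uqcr11, another small subunit, measured 10.90, 10.90, 10.86 and 11.02 in deficient ozone against 10.49, 10.65, 10.53 and 10.75 in deficient air, and 11.01, 10.89, 10.91 and 10.90 in wildtype ozone against 10.35, 10.45, 10.53 and 10.55 in wildtype air. The groups did not overlap in either genotype, with differences of 0.32 and 0.46 (adjusted p = 0.00199 and 0.000115). Uqcrc1, the first of the core proteins of complex III, rose by 0.42 in deficient and by 0.44 in wildtype mice (adjusted p = 0.00142 and 0.000884), again without overlap. Uqcr10 rose by 0.25 and 0.35, and of its 2 dimmer probe sets 1 rose in wildtype mice, by 0.23, and 0 passed in deficient mice.

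Uqcrc2, the other core protein, did not follow them on its brighter probe set. It measured 10.14, 10.31, 10.23 and 10.27 in deficient ozone against 10.63, 10.37, 10.40 and 10.57 in deficient air. It measured 10.25, 10.30, 10.35 and 10.47 in wildtype ozone against 10.21, 10.35, 10.38 and 10.43 in wildtype air. The deficient groups did not overlap and the wildtype groups did, with differences of -0.26 ± 0.070 (adjusted p = 0.0122) and -0.0029 ± 0.070 (adjusted p = 0.98). Its other probe set, nearly as bright, gave 0.08 in deficient mice, which did not pass, and 0.29 in wildtype mice, called higher. The mean of its probe sets gave -0.09 in deficient mice (adjusted p = 0.211), so no direction is given for Uqcrc2.

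In complex IV the brightest probe sets rose for a part of the subunits. Of its 16 genes, 6 rose and 0 fell in deficient mice and 6 rose and 1 fell in wildtype mice. These counts depend on the probe set read. Cox5b differed by 0.13 in deficient and 0.14 in wildtype mice on its brightest set and passed in neither. Its other bright sets gave 0.38 and 0.39, and 0.22 and 0.35, called higher in both genotypes, and 0.14 and 0.14, which did not pass. Cox8a, the form of subunit VIII found in most tissues, measured 11.08, 11.07, 11.03 and 11.06 in deficient ozone against 10.46, 10.38, 10.39 and 10.67 in deficient air. It measured 11.30, 11.04, 10.98 and 10.92 in wildtype ozone against 10.61, 10.50, 10.36 and 10.46 in wildtype air. All ozone arrays were above all air arrays. The difference was 0.58 ± 0.083 in both genotypes, 1.5-fold in deficient and 1.49-fold in wildtype mice (adjusted p = 0.000118 and 0.000119). A second bright probe set of Cox8a rose as well, by 0.45 and 0.54.

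Ndufa4, named as a complex I gene but known as a subunit of complex IV, measured 11.57, 11.68, 11.56 and 11.47 in deficient ozone against 10.94, 11.29, 10.90 and 11.18 in deficient air. It measured 11.39, 11.45, 11.46 and 11.59 in wildtype ozone against 11.14, 11.19, 11.05 and 11.01 in wildtype air. The ozone arrays stood above the air arrays in both genotypes. The difference was 0.49 ± 0.084 in deficient mice (adjusted p = 0.00049) and 0.37 ± 0.084 in wildtype mice (adjusted p = 0.00321). Cox6c, a subunit with one form in all tissues, rose by 0.26 and 0.27, while its second bright probe set gave 0.06 and 0.11 and passed in neither genotype (adjusted p = 0.728 and 0.474).

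Subunit IV has a form found in most tissues, Cox4i1, and a form found mainly in lung, Cox4i2. Cox4i2 measured 8.09, 8.03, 8.13 and 8.16 in deficient ozone against 7.76, 7.91, 7.66 and 7.60 in deficient air, and 8.19, 8.08, 8.10 and 8.25 in wildtype ozone against 7.91, 7.89, 7.99 and 7.80 in wildtype air. The groups did not overlap in either genotype, and it rose by 0.37 ± 0.071 in deficient mice (adjusted p = 0.00112) and by 0.26 ± 0.071 in wildtype mice (adjusted p = 0.0117). For Cox4i1 the differences were -0.07 ± 0.060 and 0.00 ± 0.060 and did not pass (adjusted p = 0.43 and 0.972). In wildtype mice it turned to -0.0063 under quantile normalization. The difference between the 2 forms was not tested.

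Subunit VIb likewise has a common form, Cox6b1, and a form typical of testis, Cox6b2. Cox6b2 measured 8.93, 8.70, 8.54 and 8.76 in deficient ozone against 8.22, 8.18, 8.28 and 8.36 in deficient air, and 8.85, 8.55, 8.61 and 8.87 in wildtype ozone against 8.56, 8.33, 8.28 and 8.40 in wildtype air. The deficient groups did not overlap and the wildtype groups did, at wildtype air M1. It rose by 0.47 ± 0.095 in deficient mice (adjusted p = 0.00162) and by 0.32 ± 0.095 in wildtype mice (adjusted p = 0.0163). The wildtype call was lost without wildtype ozone M1 or F2 (adjusted p = 0.0559 and 0.0555) and without the 3 mixed arrays (adjusted p = 0.0509). Cox6b1 rose in wildtype mice by 0.20 (adjusted p = 0.00777) and differed by 0.11 in deficient mice, which did not pass. Cox8c, a testis form of subunit VIII, differed by -0.04 and 0.14 and passed in neither genotype.

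Subunit VIa of the common form, Cox6a1, rose by 0.27 in deficient mice (adjusted p = 0.0178) and differed by 0.18 in wildtype mice (adjusted p = 0.091). Without deficient air M1, F1 or F2 or deficient ozone F2 the first missed the threshold, with adjusted p between 0.0514 and 0.0684, and without wildtype air F1 or deficient air M2 the second passed it, at 0.0419 and 0.0415. Its second bright probe set rose in both genotypes, by 0.50 in deficient and 0.55 in wildtype mice. Cox7a2, the common form of subunit VIIa, differed by -0.02 and 0.08 and passed in neither, while its second bright probe set differed by 0.16 in deficient mice (adjusted p = 0.0551) and was called higher, by 0.18, in wildtype mice (adjusted p = 0.0247).

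Cox7c, a subunit with one form, fell in wildtype mice by 0.42 (adjusted p = 0.0281) and differed by -0.30 in deficient mice (adjusted p = 0.111). Its level was low on every array, 4.83 to 5.50 in deficient ozone, 4.94 to 5.93 in deficient air, 4.73 to 5.01 in wildtype ozone and 5.06 to 5.50 in wildtype air. Transcripts of Y-linked genes, absent in females, read 3.82 to 4.46 on the female arrays, so the probe set stood little above the level of an absent transcript. The wildtype call was lost without wildtype air M1, wildtype ozone F1 or wildtype ozone F2 (adjusted p between 0.0619 and 0.0997).

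**Figure D2:**
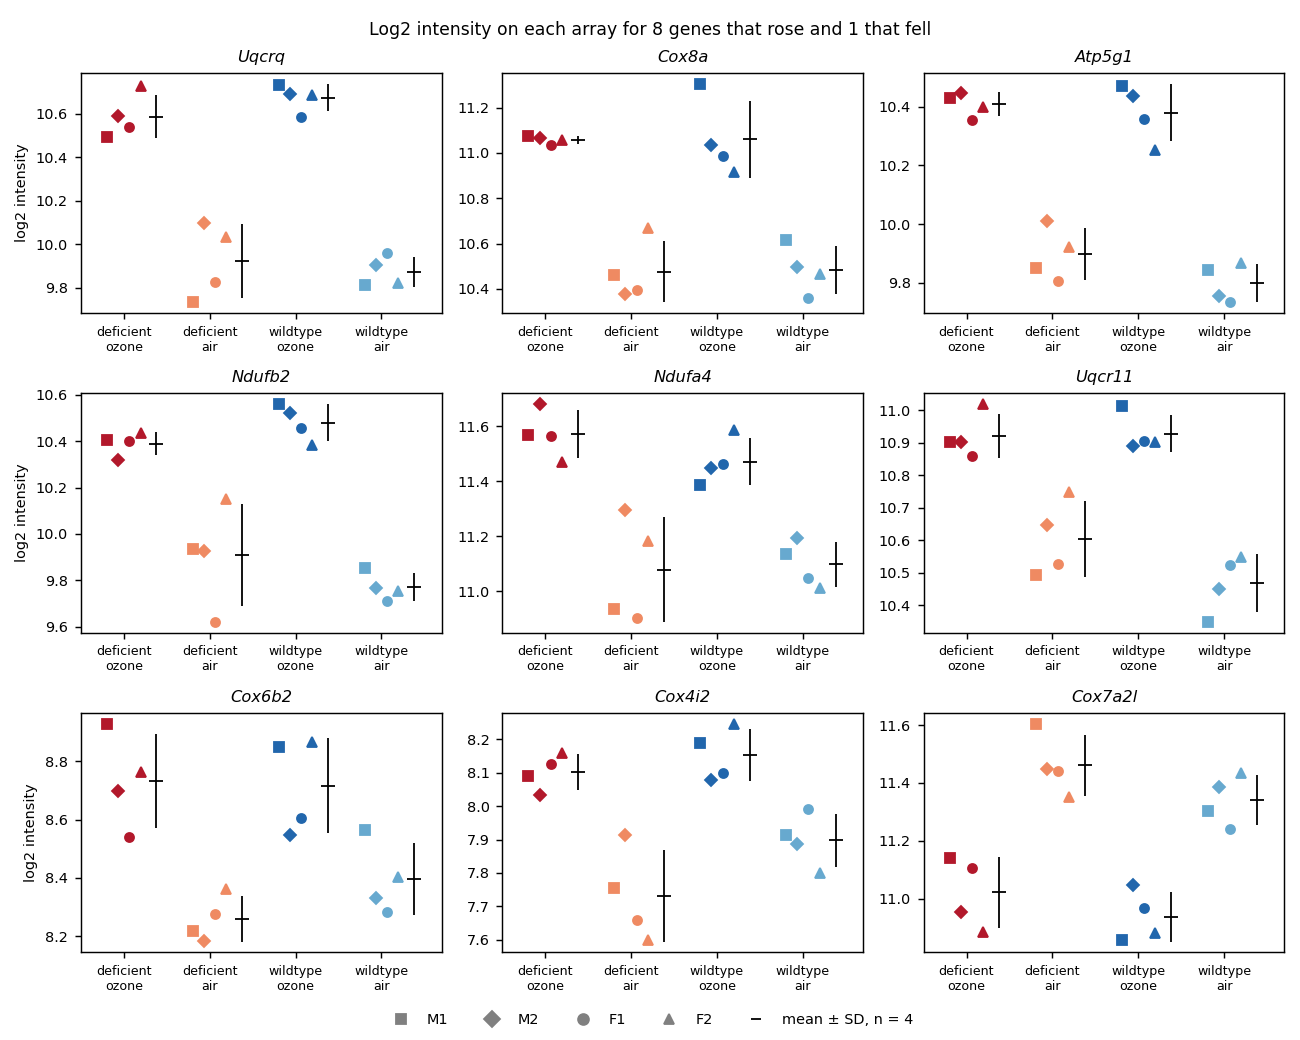
Log2 intensity on each array for 8 genes that rose and for Cox7a2l, which fell, by group, with a symbol per mouse and the mean ± SD of 4 mice. The ozone arrays lie apart from the air arrays within each genotype, except for Cox6b2 in wildtype mice.

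Cox6a2, Cox7a1 and Cox8b are the heart and muscle forms of their subunits, and Cox7a1 and Cox8b are known from brown fat as well. Of all 84 genes, Cox8b and Cox7a1 had the largest SD over the 16 arrays, 0.45 and 0.43. Cox6a2 measured 9.69, 9.63, 9.55 and 9.67 in deficient ozone against 9.57, 10.55, 9.59 and 9.69 in deficient air, and 9.82, 10.03, 9.77 and 9.84 in wildtype ozone against 9.18, 9.60, 9.82 and 9.73 in wildtype air. Cox7a1 measured 7.54, 7.39, 7.51 and 7.18 in deficient ozone against 7.96, 8.75, 7.52 and 7.86 in deficient air, and 7.37, 7.40, 7.35 and 7.54 in wildtype ozone against 6.78, 7.73, 8.01 and 7.77 in wildtype air. Cox8b measured 8.07, 7.96, 7.94 and 7.75 in deficient ozone against 8.24, 9.43, 8.06 and 8.77 in deficient air, and 7.94, 8.01, 7.91 and 8.09 in wildtype ozone against 7.58, 8.11, 8.74 and 8.03 in wildtype air. Deficient air M2 was the highest array for all 3 genes and wildtype air M1 the lowest, while the ozone arrays lay close together.

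These arrays also stood at the ends of the marker sums. The 12 cardiac markers, which a lung shows through the muscle around its large veins, summed to 13.69 to 13.86 in deficient ozone and 14.01 to 14.72 in deficient air, and to 13.48 to 13.98 in wildtype ozone and 13.03 to 14.17 in wildtype air, with the highest value on deficient air M2 and the lowest on wildtype air M1. Among them 3 fell in deficient mice, and their median difference was -0.48 in deficient and -0.12 in wildtype mice. The 12 skeletal muscle markers summed to 14.96 on deficient air M2 and to 9.57 to 9.91 on the other arrays. The 5 brown fat markers were high on deficient air F2, at 8.74, and on wildtype air F1, at 9.10, against 7.57 to 7.92 on the other arrays.

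For Cox8b the ozone difference was -0.69 ± 0.255 in deficient mice (adjusted p = 0.0516) and -0.13 ± 0.255 in wildtype mice (adjusted p = 0.726). For Cox7a1 it was -0.62 ± 0.249 (adjusted p = 0.0733) and -0.16 ± 0.249 (adjusted p = 0.654), and for Cox6a2 -0.21 ± 0.183 (adjusted p = 0.418) and 0.28 ± 0.183 (adjusted p = 0.249). Without the 3 mixed arrays the differences in deficient mice were -0.22 for Cox8b, -0.34 for Cox7a1 and 0.06 for Cox6a2, and those in wildtype mice 0.09, -0.013 and 0.36, the last with an adjusted p of 0.0286. With only 1 array left out, Cox6a2 in wildtype mice gave 0.12 to 0.38 and never passed (adjusted p between 0.0535 and 0.629). Cox8b passed in deficient mice when wildtype air M1 or F1 or deficient air M1 or F1 was left out (adjusted p between 0.0168 and 0.0371), and Cox7a1 when wildtype air M1 or deficient air F1 was (adjusted p = 0.0182 and 0.0305). Cox8b also passed in deficient mice when every probe set was tested on its own (adjusted p = 0.0497).

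**Figure D3:**
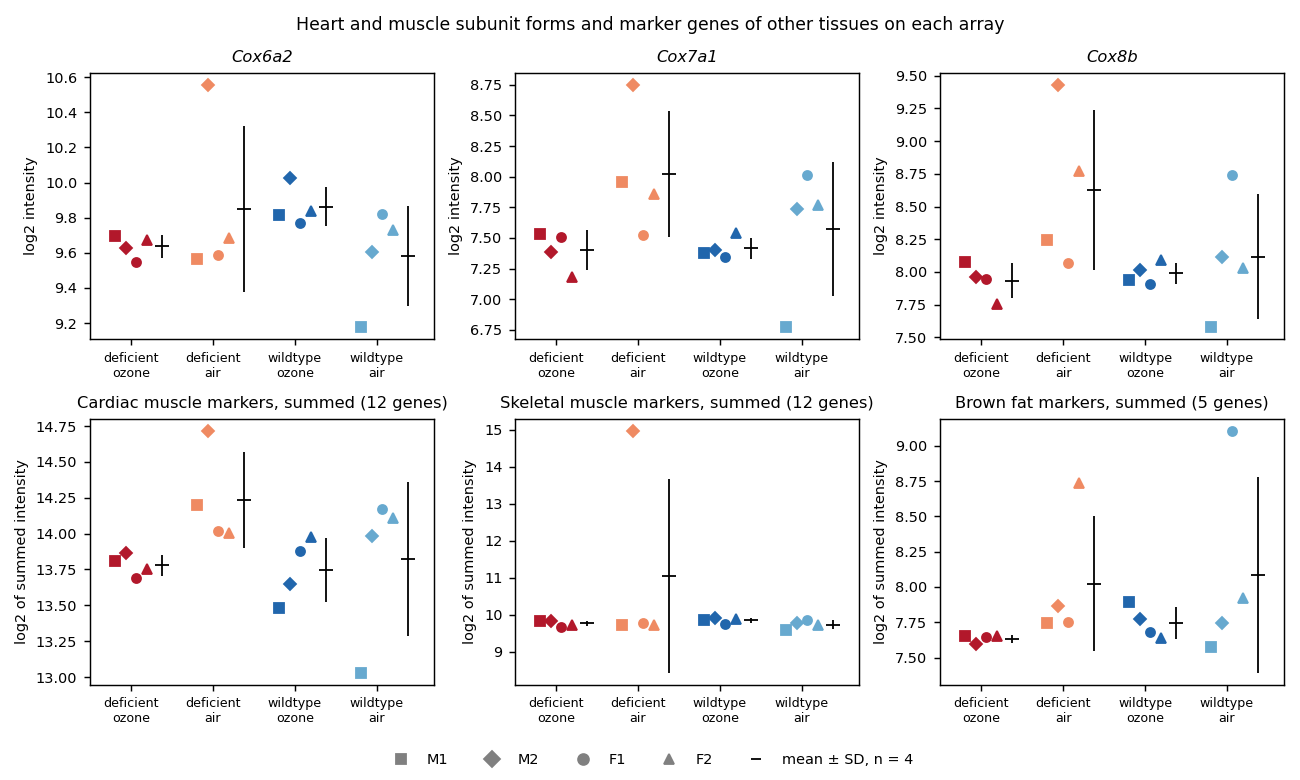
Log2 intensity of the heart and muscle forms Cox6a2, Cox7a1 and Cox8b on each array (top) and log2 of the summed intensity of 12 cardiac, 12 skeletal muscle and 5 brown fat markers (bottom), with the mean ± SD of 4 mice per group. Deficient air M2 is the highest array in all top panels and in both muscle sums, and wildtype air M1 the lowest in all top panels and in the cardiac sum.

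In ATP synthase, 6 of 17 genes rose and 1 fell in deficient mice, and 10 rose and 1 fell in wildtype mice, with median differences of 0.155 and 0.212. Atp5g1, Atp5g2 and Atp5g3 encode the same membrane c subunit of the rotor behind different targeting peptides. Atp5g1 measured 10.43, 10.45, 10.35 and 10.40 in deficient ozone against 9.85, 10.01, 9.81 and 9.92 in deficient air. It measured 10.47, 10.44, 10.36 and 10.25 in wildtype ozone against 9.84, 9.75, 9.74 and 9.87 in wildtype air. No ozone array overlapped the air arrays. It rose by 0.51 ± 0.058 in deficient mice (adjusted p = 1.8e-05), 1.42-fold, and by 0.58 ± 0.058 in wildtype mice (adjusted p = 6.88e-06), 1.49-fold.

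Atp5g2 measured 11.50, 11.47, 11.35 and 11.38 in deficient ozone against 11.20, 11.21, 11.08 and 11.17 in deficient air, and 11.55, 11.41, 11.40 and 11.38 in wildtype ozone against 11.05, 11.001, 10.95 and 11.23 in wildtype air. The groups did not overlap, and it rose by 0.26 and 0.38 (adjusted p = 0.00693 and 0.000458). Its second probe set averaged 4.30, the level of an absent transcript. Atp5g3 differed by 0.05 and 0.10 and passed in neither genotype. Atp5o, which joins the stalk to the catalytic head, rose by 0.25 and 0.41, while its second probe set gave 0.03 and 0.22 and passed in neither genotype.

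Of the falls in ATP synthase, Atp5h, a subunit of the stator stalk, measured 12.11, 12.16, 12.11 and 12.12 in deficient ozone against 12.33, 12.26, 12.30 and 12.34 in deficient air. It measured 11.94, 11.99, 12.10 and 12.17 in wildtype ozone against 12.08, 12.17, 12.17 and 12.34 in wildtype air. The deficient groups did not overlap and the wildtype groups did, with differences of -0.18 ± 0.058 (adjusted p = 0.0273) and -0.14 ± 0.058 (adjusted p = 0.0722). The call in deficient mice was lost without deficient air M1, deficient ozone F1 or deficient ozone F2 (adjusted p between 0.0768 and 0.0859), and the other bright probe set gave -0.01 and 0.08. Atp5c1, the shaft of the rotor, fell by 0.20 in wildtype mice (adjusted p = 0.0328) and differed by -0.18 in deficient mice (adjusted p = 0.0573). The wildtype call was lost without wildtype air F2 or any 1 of the 4 wildtype ozone arrays (adjusted p between 0.0513 and 0.105) and after shifting all arrays to the same median (adjusted p = 0.0678).

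Complex I, the largest of the complexes, held 9 rises and 1 fall among its 33 genes in deficient mice and 13 rises and 0 falls in wildtype mice, with median differences of 0.065 and 0.140. In all, 30.3% of its genes were called in deficient and 39.4% in wildtype mice, near the 30.3% and 36.7% of all genes. The rises made up 27.3% and 39.4%, where over all genes 15.8% and 19.6% rose. Ndufb2, an accessory subunit of the membrane arm, measured 10.41, 10.32, 10.40 and 10.43 in deficient ozone against 9.93, 9.93, 9.62 and 10.15 in deficient air. It measured 10.56, 10.52, 10.46 and 10.38 in wildtype ozone against 9.85, 9.77, 9.71 and 9.76 in wildtype air. The ozone arrays stood above the air arrays in both genotypes. It rose by 0.48 ± 0.086 in deficient mice (adjusted p = 0.000688), 1.39-fold, and by 0.71 ± 0.086 in wildtype mice (adjusted p = 3.56e-05), 1.63-fold, and its second probe set rose by 0.34 and 0.35.

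Other complex I genes also rose in both genotypes on their brightest probe sets, and are named here after their values were seen. They were Ndufs3, a core subunit of the matrix arm, with 0.41 in each, and the accessory subunits Ndufb1, Ndufa10, Ndufv3, Ndufa3, Ndufa13, Ndufa8 and Ndufa7. The complex I counts depend on the probe set read. Further bright sets of Ndufa5, Ndufb6, Ndufb7, Ndufb11, Ndufc1, Ndufs7 and Ndufs8 were called higher in both genotypes, while their brightest sets passed in neither. For Ndufb6 that set gave 0.36 in deficient and 0.33 in wildtype mice. A further bright set of Ndufb5 was called lower in deficient mice, by 0.25. The single fall on a brightest set was that of Ndufb10 in deficient mice. Ndufb10 measured 10.33, 10.48, 10.33 and 10.37 in deficient ozone against 10.68, 10.68, 10.47 and 10.62 in deficient air, which overlapped, a difference of -0.24 ± 0.079 (adjusted p = 0.0337), and differed by -0.06 in wildtype mice. Leaving out any 1 of 6 deficient arrays, all but air F1 and ozone M2, lost the call (adjusted p between 0.0594 and 0.102), as did the shift to one median (adjusted p = 0.0519).

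Of the 4 complex II genes, 2 rose and 1 fell in deficient mice and 2 rose and 0 fell in wildtype mice. Sdhc, an anchor that carries heme, measured 10.40, 10.37, 10.32 and 10.48 in deficient ozone against 10.08, 10.04, 10.08 and 10.29 in deficient air, and 10.36, 10.41, 10.22 and 10.41 in wildtype ozone against 9.997, 10.01, 10.07 and 10.09 in wildtype air. No groups overlapped, and it rose by 0.27 and 0.31 (adjusted p = 0.00572 and 0.00203), while its second probe set gave -0.06 and 0.03. Sdhd, the other anchor, rose by 0.20 in deficient mice (adjusted p = 0.0247) and differed by 0.16 in wildtype mice (adjusted p = 0.0585). Sdhb, the iron-sulfur subunit, rose by 0.21 in wildtype mice (adjusted p = 0.0239) and differed by 0.14 in deficient mice (adjusted p = 0.135).

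Sdha, the flavoprotein that oxidises succinate, measured 10.83, 10.88, 10.80 and 10.54 in deficient ozone against 11.05, 10.95, 10.97 and 10.98 in deficient air. It measured 10.80, 10.85, 10.90 and 10.65 in wildtype ozone against 11.01, 10.90, 10.92 and 10.98 in wildtype air. The deficient groups did not overlap and the wildtype groups met at ozone F1 and air M2, with differences of -0.22 ± 0.071 (adjusted p = 0.0265) and -0.15 ± 0.071 (adjusted p = 0.106). On its second probe set the falls passed in both genotypes, -0.21 (adjusted p = 0.00893) and -0.17 (adjusted p = 0.0249). Single arrays moved these calls across the threshold: for Sdha in deficient mice deficient air M1, F1 or F2 or deficient ozone F2 (adjusted p between 0.0597 and 0.1), for Sdha in wildtype mice wildtype ozone F1 (0.0483), for Sdhd in deficient mice deficient air M1 or F1 or deficient ozone M1 or M2 (between 0.0647 and 0.0929), for Sdhd in wildtype mice deficient air M1 or F2 (0.0498 and 0.0398), and for Sdhb in wildtype mice wildtype air M1 or M2 or wildtype ozone F2 (between 0.0546 and 0.0892). Quantile normalization also lost the Sdhb call (adjusted p = 0.0942).

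Of the 6 associated factors, 1 rose and 2 fell in deficient mice, and 0 rose and 2 fell in wildtype mice. Cox7a2l is known as a factor of supercomplexes of complexes III and IV, and whether it acts so in these mice was not tested. Cox7a2l measured 11.14, 10.96, 11.10 and 10.89 in deficient ozone against 11.60, 11.45, 11.44 and 11.35 in deficient air. It measured 10.86, 11.05, 10.97 and 10.88 in wildtype ozone against 11.30, 11.38, 11.24 and 11.44 in wildtype air. Every ozone array lay below every air array. It fell by 0.44 ± 0.073 in deficient mice (adjusted p = 0.000395) and by 0.40 ± 0.073 in wildtype mice (adjusted p = 0.000693), 0.737 and 0.756 times the air level, and its other 2 probe sets fell in both genotypes too. Ndufaf4, an assembly factor of complex I, fell by 0.34 in deficient mice (adjusted p = 0.0128) and by 0.33 in wildtype mice (adjusted p = 0.0126) on both of its probe sets, with the deficient call lost without deficient ozone F2 (adjusted p = 0.0512) or without the 3 mixed arrays (adjusted p = 0.0575). The rise was that of Ndufaf5, another assembly factor of complex I, by 0.28 in deficient mice.

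Between genotypes no member passed. In ozone 0 of 84 members were called by limma, and all genes gave 0.0161% higher and 0% lower. In air 0 of 84 were called, and all genes gave 0.00807% higher and 0% lower. At an unadjusted p under 0.05 there were 0 higher and 1 lower in ozone, where all genes gave 5.17% and 6.06%, and 16 higher and 1 lower in air, where all genes gave 2.67% and 3.24%. The median difference of deficient minus wildtype was 0.023 in ozone (all genes -0.008) and 0.0998 in air (all genes -0.003), and 54 members in ozone and 73 in air were above 0. Without the 3 mixed arrays, all of them air arrays, the median in air was 0.065.

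In air, 13 of the 16 members above wildtype at an unadjusted p under 0.05 belonged to complex I, which holds 33 of the 84 members. These counts rest on the brightest probe sets, and further bright sets did not always give the same size. In air Ndufb6 differed by 0.24 on its brightest set and by 0.01 on the other. Ndufb5 went the other way, with 0.10 on its brightest set and 0.22 on the other. The median deviation of complex I from its wildtype air mean was below 0 only in the wildtype air males, at -0.108 and -0.090. It was 0.084 and 0.081 in the wildtype air females, beside 0.074 and 0.152 in the deficient air females. The smallest p in air belonged to Ndufa6, an accessory subunit, at 10.43, 10.38, 10.13 and 10.39 in deficient air against 10.20, 10.19, 10.04 and 10.02 in wildtype air. These ranges overlapped at deficient air F1, and the difference was 0.22 (adjusted p = 0.716). Ndufs7, an iron-sulfur subunit, measured 10.72, 10.65, 10.71 and 10.76 in deficient air against 10.33, 10.34, 10.58 and 10.68 in wildtype air, also with overlap, a difference of 0.23 (adjusted p = 0.717). Within wildtype air the males lay below the females for Ndufs7 on this probe set. The other bright probe set of Ndufs7 gave -0.03 (adjusted p = 0.945). In ozone the smallest p belonged to Cox8c, with a difference of -0.21 (adjusted p = 0.361).

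The size of the ozone difference was not shown to depend on genotype. No member and 0% of all genes passed the interaction in limma. At an unadjusted p under 0.05 there were 0 members with an interaction above 0 and 1, Uqcrc2, below 0, where all genes gave 2.4% and 2.48%. Its ozone difference was -0.26 in deficient and -0.0029 in wildtype mice. Uqcrc2 had an interaction of -0.25 (adjusted p = 0.983). The median interaction of the members was -0.071, that of all genes -0.004, and without the 3 mixed arrays the members' median was -0.042. The interaction was below 0 for 69 of the 84 members, which share their arrays.

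Array by array, the median deviation of the 84 genes from their wildtype air mean was 0.148 to 0.193 in deficient ozone and 0.042 to 0.149 in deficient air, and 0.149 to 0.192 in wildtype ozone and -0.064 to 0.076 in wildtype air. The 2 ozone groups covered nearly the same range. Deficient air M2, at 0.149, reached the lower edge of the ozone arrays, and it is the array with skeletal muscle markers. The same deviation over all genes stayed between -0.027 and 0.051 on every array.

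**Figure D4:**
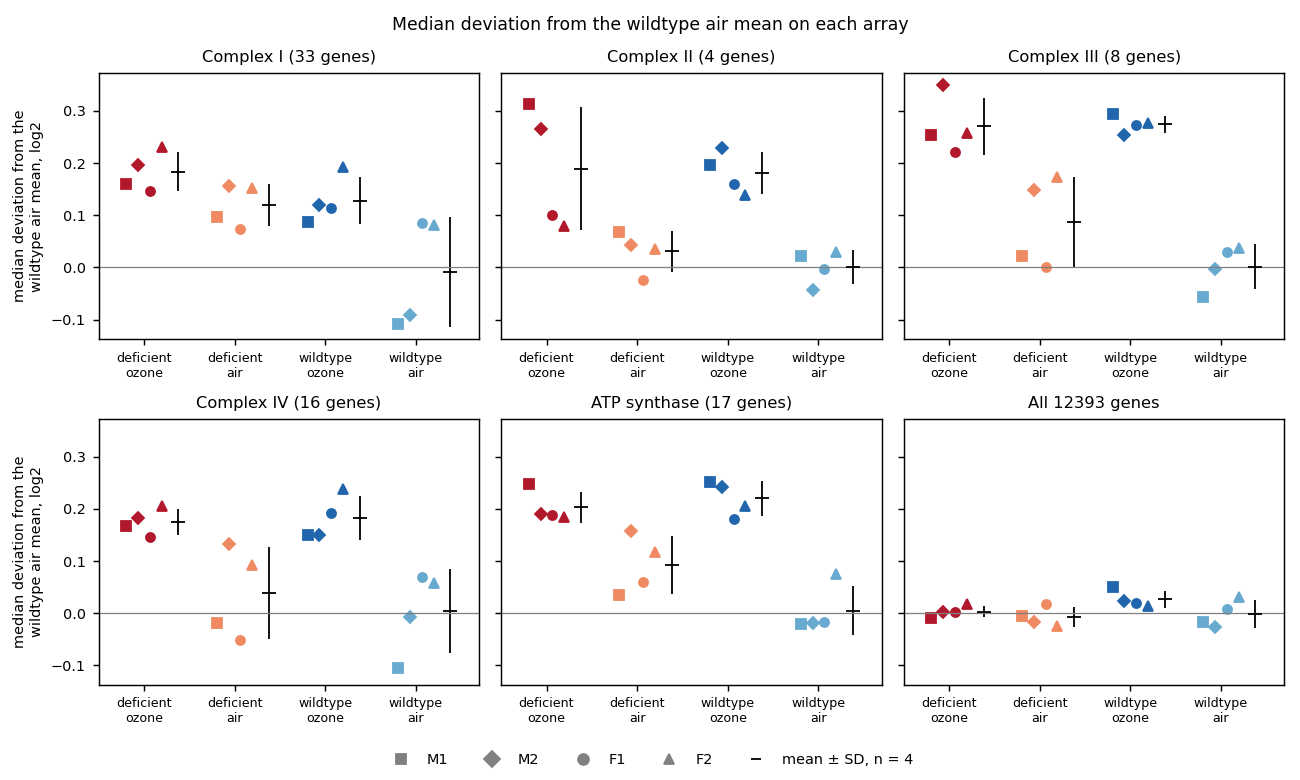
Median deviation in log2 intensity of the genes of each complex, and of all 12393 genes, from their wildtype air mean, for every array by group, with the mean ± SD of 4 mice. The medians of all genes stay between -0.027 and 0.051, while the ozone arrays lie above 0 in every complex. All 4 deficient air arrays also lie above 0 in complex I, complex III and ATP synthase, and in complex I wildtype air F1 and F2, at 0.084 and 0.081, lie beside wildtype ozone M1, at 0.087.

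Other mitochondrial gene lists, read with the shares over all genes given above, differed in their counts. Of 74 genes of the mitochondrial ribosome, which translates the subunits encoded in mitochondrial DNA, 33 rose and 1 fell in deficient mice and 33 rose and 1 fell in wildtype mice, with median differences of 0.174 and 0.162. Of 22 genes of protein import, 8 rose and 1 fell in deficient mice and 9 rose and 2 fell in wildtype mice. Timm50, part of the inner membrane translocase, rose by 0.69 and 0.61, and Tomm40, the pore of the outer membrane, by 0.57 and 0.67. The import receptor Tomm70a fell by 0.39 in deficient and by 0.64 in wildtype mice.

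Of 10 other subunits and electron carriers, 2 rose and 3 fell in deficient mice and 2 rose and 1 fell in wildtype mice. Etfb, which brings electrons from fatty acid oxidation, rose by 0.28 and 0.37, and Etfdh, which passes them to ubiquinone, fell by 0.28 and 0.31. Cyc1, the cytochrome c1 of complex III, differed by -0.10 and -0.04, and Cycs, cytochrome c, by -0.01 and 0.17, and both passed in neither genotype. Of 27 further assembly factors, 4 rose and 4 fell in deficient mice and 5 rose and 4 fell in wildtype mice. Coa3, which acts in complex IV assembly, rose by 0.36 and 0.39, and Coa5, another such factor, fell by 0.30 and 0.19.

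Of 21 genes of the citric acid cycle and pyruvate dehydrogenase, 2 rose and 4 fell in deficient mice and 4 rose and 4 fell in wildtype mice. Pdk3, a kinase that inhibits pyruvate dehydrogenase, rose by 0.42 and 0.30, Pdk2, another such kinase, fell by 0.45 and 0.58, and Idh2 rose by 0.34 and 0.43. Of 13 carriers, pores and uncoupling proteins, 1 rose and 1 fell in deficient mice and 2 rose and 0 fell in wildtype mice. Slc25a5, the ADP and ATP carrier of most tissues, rose by 0.40 ± 0.065 in deficient and by 0.34 ± 0.065 in wildtype mice (adjusted p = 0.00032 and 0.000937). Slc25a4, the carrier of heart and muscle, differed by -0.11 and -0.0078 and did not pass.

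**Figure D5:**
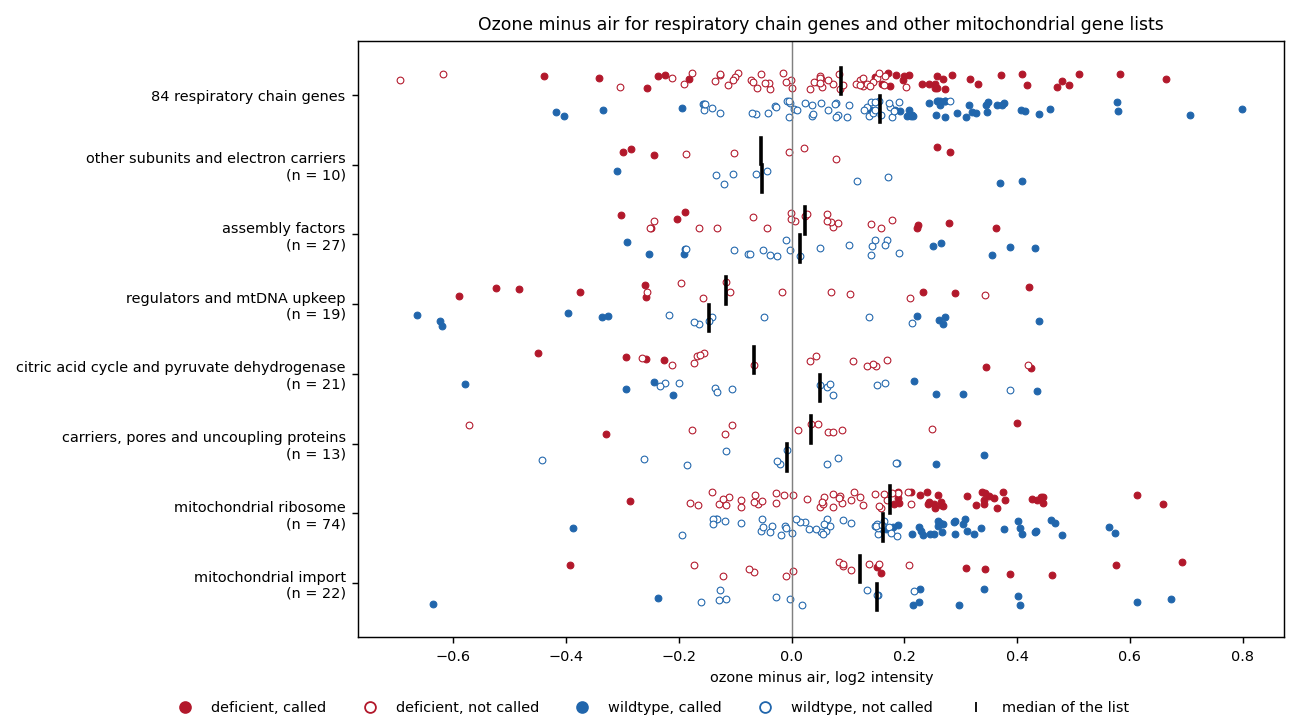
Ozone minus air in log2 intensity for the 84 respiratory chain genes and for each gene of 7 other mitochondrial lists, in deficient mice (red) and wildtype mice (blue), with filled points for genes called and black bars for the median of each list. The medians of the mitochondrial ribosome, 0.174 and 0.162, lie right of 0, and those of the regulators, -0.117 and -0.147, left of it.

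Among 19 regulators and genes of mitochondrial DNA upkeep, 3 rose and 6 fell in deficient mice and 5 rose and 6 fell in wildtype mice, with median differences of -0.117 and -0.147. Gabpa, the DNA-binding subunit of the ETS-type factor that binds many respiratory chain promoters, measured 8.25, 8.12, 8.10 and 7.88 in deficient ozone against 8.66, 8.54, 8.52 and 8.56 in deficient air. It measured 7.79, 7.80, 8.09 and 8.08 in wildtype ozone against 8.53, 8.65, 8.49 and 8.59 in wildtype air. Every ozone array was below every air array, and it fell by 0.48 ± 0.087 in deficient mice (adjusted p = 0.000731) and by 0.62 ± 0.087 in wildtype mice (adjusted p = 9.92e-05).

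Yy1, another factor known at these promoters, fell by 0.26 and 0.33 (adjusted p = 0.00851 and 0.00163). Nrf1, which binds a palindrome in many of them, differed by -0.20 and -0.22 and did not pass (adjusted p = 0.197 and 0.131). Tfam, the packaging and transcription factor of mitochondrial DNA, differed by -0.12 in deficient mice (adjusted p = 0.349) and fell by 0.34 in wildtype mice (adjusted p = 0.00796), and Tfb2m and Polg2, which serve transcription and copying of that DNA, fell in both, by 0.52 and 0.66 and by 0.59 and 0.62. The coactivator Ppargc1a differed by -0.26 and -0.16 and did not pass, while Ppargc1b fell by 0.26 in deficient mice. Tufm, an elongation factor of mitochondrial translation, rose by 0.42 and 0.27, and Esrra, a nuclear receptor for which these coactivators work, rose by 0.27 in wildtype mice alone by these calls.

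Since members and the factors known at their promoters were measured on the same arrays, the letters upstream of the start of transcription are described. RefSeq windows of 300 bases (GRCm38.p6, 250 before to 50 after the annotated start) were at hand for 70 of the 84 genes, in 75 windows. The palindrome of NRF1, searched by its core CGCATGCG, stood in 10 of them (13.3%), against 2.52% of the 21263 windows of all protein-coding genes. The ETS letters CCGGAAG, on either strand, stood in 18 (24%), against 11.6%. The YY1 letters AAGATGGCG, on either strand, stood in 6 (8%), against 1.83%. None of these strings contains another, and a match describes letters, not binding.

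The 250 bases before the start are shown for Atp5g2 and Uqcr11, which rose in both genotypes, for Cox6a1, which rose in deficient mice, and for Ndufaf4, which fell. The genes shown were chosen with their values known, and not all of them carry the same marked letters. Capitals mark the NRF1 palindrome in Atp5g2 (first base at -41 from the start, chr15:102671048-102671297, minus strand), in Cox6a1 (first base at -161, chr5:115348959-115349208, minus strand) and in Ndufaf4 (first base at -112, chr4:24897833-24898082, plus strand). They mark the ETS letters in Cox6a1 (first base at -16, on the other strand) and in Uqcr11 (first base at -66, chr10:80406822-80407071, minus strand). A match of the NRF1 core in Uqcr11 that runs across the start is not in the stretch shown.
Atp5g2: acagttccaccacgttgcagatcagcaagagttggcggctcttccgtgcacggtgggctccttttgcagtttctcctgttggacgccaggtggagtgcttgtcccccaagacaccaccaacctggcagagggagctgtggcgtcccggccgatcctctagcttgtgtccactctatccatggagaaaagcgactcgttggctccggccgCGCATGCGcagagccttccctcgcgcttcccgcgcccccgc
Cox6a1: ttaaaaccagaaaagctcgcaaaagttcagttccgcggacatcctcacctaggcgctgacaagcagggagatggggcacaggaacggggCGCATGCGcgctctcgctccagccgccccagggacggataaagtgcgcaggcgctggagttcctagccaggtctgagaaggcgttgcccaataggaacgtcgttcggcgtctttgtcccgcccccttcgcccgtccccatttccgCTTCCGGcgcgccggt
Uqcr11: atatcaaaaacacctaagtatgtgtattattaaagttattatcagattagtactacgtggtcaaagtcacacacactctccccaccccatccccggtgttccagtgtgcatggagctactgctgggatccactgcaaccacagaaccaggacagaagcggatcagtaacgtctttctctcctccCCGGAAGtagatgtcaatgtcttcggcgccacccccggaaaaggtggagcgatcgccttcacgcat
Ndufaf4: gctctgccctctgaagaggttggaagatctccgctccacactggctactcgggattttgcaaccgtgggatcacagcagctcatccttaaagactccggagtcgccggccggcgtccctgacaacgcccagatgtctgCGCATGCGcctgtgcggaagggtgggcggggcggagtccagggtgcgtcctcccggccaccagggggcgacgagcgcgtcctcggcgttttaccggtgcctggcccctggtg

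The ozone differences of the genes shown were 0.26 and 0.38 for Atp5g2, 0.27 and 0.18 for Cox6a1, 0.32 and 0.46 for Uqcr11 and -0.34 and -0.33 for Ndufaf4, in deficient and in wildtype mice. The windows of Ndufb2, Ndufa4 and Atp5g1, which rose in both genotypes, held none of these strings. Other genes that rose in both genotypes held them, among them Cox8a and Ndufs3 (ETS letters), Uqcrc1 and Ndufa8 (NRF1 core) and Atp5k (both). Whether the strings bear on the size or direction of these differences was not tested.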

How the data were processed

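Biotin-labelled cRNA from total RNA of the left lung was hybridised to Affymetrix arrays, per the labels' protocols. The authors deposited an intensity for each probe set on each array, computed by RMA per the submitters' processing notes (a robust averaging method that removes background, equalises the arrays and condenses a set's probes to 1 value), with no software version stated there. The deposited values were linear, 11.1305 to 26974.7, and their log2 was taken. Normalization between arrays removes any change of all RNA together. Without detection calls, the distance of a dim gene from background was judged only against absent Y-linked transcripts. Of 22690 probe sets, 64 controls, 691 with several symbols and 1555 with none in the platform annotation, which can be old, were left out. For each of 12393 genes the probe set of highest mean was tested.

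All 16 arrays were fitted with limma 3.58.1 in R 4.3.3 (lmFit, eBayes) with 4 groups and sex, with p-values adjusted by Benjamini-Hochberg over all genes, two-sided. The interaction is the ozone difference in deficient mice less that in wildtype mice. Members, gene lists, tests and the rule for named genes were chosen with earlier results of these data known. The rule took, of the members called, the 6 largest rises and the 6 largest falls per ozone comparison, the 5 of smallest p per genotype comparison and interaction, the subunits with tissue forms, the complex II genes, the 5 of largest SD, fixed regulators and carriers, and the called gene of largest change per list and direction. Genes named outside it (Ndufs3, Uqcr10, Cox6c, Atp5o, Yy1, Tfb2m, Polg2, Idh2, Tomm40 and others given in passing) were named after their values were seen. The labels name separate mice as replicates. On simulated data with the spread of these 12393 genes the fit recovered 28, 80, 96 and 100% of genes changed by 0.25, 0.5, 1 and 2 on the log2 scale for ozone in deficient mice, 18, 76, 98 and 98% for ozone in wildtype mice, and 2, 46, 94 and 98% for the interaction. Far fewer genes were changed in each simulation than the 30.3% in deficient and 36.7% in wildtype mice called for ozone here. The adjusted threshold was therefore stricter there, and the recovery does not give the sensitivity of the ozone comparisons. Alternatives were quantile normalization, a common median, the mean of all probe sets, the dimmest genes left out, an intensity trend, array weights, no sex term, the replicate number as a block, the compared groups alone, a threshold of 0.01, arrays left out, and, added after the data were seen, other choices of probe set. Promoter sequences and chromosomes are RefSeq's (GRCm38.p6). The promoter strings were chosen after the data were seen, and the NRF1 string was shortened to its core after a longer form had been counted. Python 3.11.15 with matplotlib 3.10.9 drew the figures.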

Additional observations from a re-analysis of the deposited data

Results flagged for a closer look

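In a group of 4 arrays, a value was singled out where its gap to the nearest other array was, relative to the group's range, above the critical value of Dixon's test, which chance gives in about 1 in 20 groups. Of the 152 groups of the 38 members named by the rule, 8 held such a value, and of the 336 groups of all members 11 did. Cox6a2 stood at 10.55 on deficient air M2, against 9.57 to 9.69 on the other deficient air arrays. Uqcrc1 stood at 10.44 on deficient air M2, against 10.12 to 10.15. Ndufa13 stood at 11.86 on deficient air M1, against 11.94 to 11.96. Ndufa6 stood at 10.13 on deficient air F1, against 10.38 to 10.43. Atp5g2 stood at 11.55 on wildtype ozone M1, against 11.38 to 11.41. Uqcr11 stood at 11.01 on wildtype ozone M1, against 10.89 to 10.91. Uqcrc1 stood at 10.40 on wildtype air F1, against 10.14 to 10.18. Ndufs5 stood at 9.84 on wildtype air F2, against 9.76 to 9.77. Deficient air M2 and wildtype air F1 are among the 3 air arrays that carried fat, muscle or squamous markers.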

How the results depend on the processing

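The number of members called for ozone, 34 of 84 in deficient and 40 of 84 in wildtype mice, was 17 and 25 at a threshold of 0.01, and 64 and 81 of 156 with every probe set tested on its own (an alternative chosen after seeing the data). Leaving out 1 array at a time gave 21 to 36 in deficient mice, lowest without deficient ozone F2, and 34 to 41 in wildtype mice. The remaining alternatives gave counts within 1.5 times the reported ones, with median differences between 0.063 and 0.130 in deficient and between 0.136 and 0.194 in wildtype mice over all alternatives. Genotype and interaction counts were 0 under every alternative run, and the interaction could not be fitted on the compared groups alone. The labels' replicate numbers were not taken as pairs. Of 24 pairs of arrays with the same number, 18 had a correlation of deviations over 0.1 (from -0.040 to 0.350), and 9 of 16 arrays correlated best with their own number. Arrays with the same number also share sex, which these deviations kept, so the correlations cannot tell pairing from sex. With the replicate block the counts were 30 in deficient and 38 in wildtype mice.

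Directions turned for members that were not called. In deficient mice Cox6a2 became 0.058 without the 3 mixed air arrays and 0.048 when deficient ozone F2 was left out as well, and Cox7a2 became 0.0035 and 0.021 under the same settings and 0.071 with the mean of its probe sets. In wildtype mice Cox8b became 0.087 and 0.080 under those settings, and Cox4i1 became -0.0063 under quantile normalization. Deficient minus wildtype in ozone for Cox7c became -0.0045 with its plain probe set. Leaving out 1 array gave, in deficient mice, Cox6a2 -0.32 to 0.034, Cox7a2 -0.058 to 0.026 and Cox8c -0.085 to 0.0090, and, in wildtype mice, Cox4i1 -0.055 to 0.049, Cox7a1 -0.45 to 0.0071 and Cox8b -0.32 to 0.10. The cause was not tested. Of the 69 differences of single genes, 10 lost and 6 gained their call when some 1 array was left out, and 17 lost and 6 gained it under at least 1 other alternative (14 and 6 without the threshold of 0.01). The 4 arrays per group limit what could be called. At a change of 0.25 on the log2 scale the simulated recovery was 28% in deficient and 18% in wildtype mice, and 2% for the interaction. Far fewer genes were changed in the simulation than were called for ozone here, so its threshold was stricter than that of the ozone comparisons.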

Other observations

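Where a member had a second bright probe set, the sets did not always give the same size. Of 72 probe sets of members that were not the brightest of their gene, 54 averaged above 7, and of these 41 in deficient and 44 in wildtype mice had the same sign for ozone minus air as the brightest set. Atp5d, a subunit of the ATP synthase rotor, differed by 0.15 and 0.18 on its brightest set and passed in neither genotype, while its other set rose by 0.55 in deficient mice (adjusted p = 0.000134) and by 0.50 in wildtype mice (adjusted p = 0.000259). In wildtype mice 3 bright probe sets of Ndufa12 were called higher and the remaining set was called lower, but that one averaged 4.75, little above the 3.82 to 4.46 of absent Y-linked transcripts. Ndufs4 had its brightest set, at 8.85, called higher and another, at 6.37, called lower in wildtype mice. The median deviation of the complex I genes from their wildtype air mean was 0.097 and 0.156 in the males and 0.074 and 0.152 in the females of deficient air, and -0.108 and -0.090 in the males and 0.084 and 0.081 in the females of wildtype air.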
